A study of Mus musculus with 2 samples.

Results

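Integrins and other surface adhesion proteins of erythroid progenitors were described through 8 genes chosen by symbol, out of 43346 genes in the deposited tables. They are the integrin chains Itga4, Itga5 and Itgb1, the hyaluronan receptor Cd44, the integrin-associated protein Cd47, the scavenger receptor Cd36, the tetraspanin Cd9, and Bsg (basigin). All 8 identifiers were found in both libraries. The RNA came from primary CFU-E, the committed erythroid progenitors that form small red cell colonies in culture (colony-forming units erythroid), taken from adult male C57BL/6J mice 5 to 6 weeks old, and was sequenced as total RNA after removal of ribosomal RNA. The 2 libraries, replicate 1 and replicate 2, form 1 group with no genetic change or treatment, and each was prepared by ScriptSeq from 100 ng of RNA. The labels call them biological replicates but give both the same donor identifier, so what separates them may be technical rather than biological. Levels are given in TPM (a measure of transcript abundance corrected for length and library size) and, where stated, in expected counts.

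Integrins are pairs of an alpha and a beta chain that bind extracellular matrix or counter-receptors on neighbouring cells. Itga4 with Itgb1 forms the receptor VLA-4, and Itga5 with Itgb1 forms VLA-5. In bone marrow, erythroid precursors are known to bind the Vcam1 of macrophages through VLA-4 and fibronectin through both receptors, and they lose these contacts as they mature. Cd44, Cd47, Cd36, Cd9 and Bsg are surface proteins that take part in adhesion, cell recognition, lipid uptake or the trafficking of partner proteins.

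Replicate 1 held 62576357 expected counts and replicate 2 held 36889517, and 12716 and 14415 genes had counts. The nuclear protein-coding class made up 12.4% of all TPM in replicate 1 against 7.49% in replicate 2, so its deposited TPM differed in scale. For the genes of that class with a mean count of at least 50 the median log2 ratio of replicate 1 over replicate 2 was 0.67 on deposited TPM. It was 0.03 on counts scaled by TMM (the trimmed mean of M-values), and -0.06 on TPM rescaled so that nuclear protein-coding genes sum to 1000000. Differences between libraries are therefore read on TMM-scaled counts or rescaled TPM. Of 10 erythroid marker genes, 9 stood at 10 TPM or more in both libraries, among them Hbb-bs, Slc4a1, Tfrc and Car2. The tenth, Kit, the stem cell factor receptor that CFU-E are known to carry, was low, with 0.42 TPM in replicate 1 and 0.51 TPM in replicate 2. On rescaled TPM Kit had 3.38 and 6.81, from 345 and 328 expected counts. Transcripts of other blood lineages were present as well, and their values stand beside the genes they share a lineage with.

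The sequences below are those that the transcript results turn on. They come from GENCODE M21 transcripts on mm10, are written 5′ to 3′ in the sense of the gene, and were not read from the libraries. Capitals in the first pair mark the first 15 bases after the exon junction of Cd44, on the minus strand. The upper junction, spanning chr2:102828596-102853029, joins constant exons directly (Cd44-203), and the lower one, spanning chr2:102842363-102853029, enters the first variant exon (Cd44-207).
Cd44-203 junction: gcaccttggccaccaGAGATCGAGACTCAT
Cd44-207 junction: gcaccttggccaccaATATAGACAGAATCA
Cd44-207 first variant exon, chr2:102842261-102842377: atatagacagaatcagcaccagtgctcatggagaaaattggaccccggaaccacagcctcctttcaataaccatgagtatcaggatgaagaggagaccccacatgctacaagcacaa

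Bsg is transcribed from the plus strand, and its forms part after the first coding exon. That exon is shown whole because Bsg-202 lacks it. The next lines show the junction that skips the long form's extra exon (Bsg-205, chr10:79704570-79709685), the junction into that exon (Bsg-201, chr10:79704570-79708711), and the exon's first 150 bases. Capitals mark the 15 bases that follow each junction.
Bsg-205 coding exon 1, chr10:79704518-79704584: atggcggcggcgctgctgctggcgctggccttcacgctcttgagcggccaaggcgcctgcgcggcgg
Bsg-205 junction: gcgcctgcgcggcggCGGGCACCATCCAAA
Bsg-201 junction: gcgcctgcgcggcggCTGGTTTCCTCAAGG
Bsg-201 extra exon, chr10:79708697-79708846: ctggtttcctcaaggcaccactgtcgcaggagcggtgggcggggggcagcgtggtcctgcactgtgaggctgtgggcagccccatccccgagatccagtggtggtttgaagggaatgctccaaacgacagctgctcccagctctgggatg

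The 2 alpha chains are shown around the longest stretch that their coding sequences share, 12 bases in capitals, because the contrast between them depends on reads being told apart. Coding bases 629 to 700 of Itga4 lie at chr2:79279087-79279158 on the plus strand, and coding bases 1620 to 1691 of Itga5 lie within chr15:103352109-103352268 on the minus strand, across an intron.
Itga4 coding bases: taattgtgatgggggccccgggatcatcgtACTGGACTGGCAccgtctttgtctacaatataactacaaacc
Itga5 coding bases: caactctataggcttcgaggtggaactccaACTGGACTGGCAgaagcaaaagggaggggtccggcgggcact

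The 8 genes spanned a wide range, from Bsg among the most abundant protein-coding transcripts of these cells to Itga5, which was barely detected. On the TPM scale they stood in the same order in both libraries, with Bsg first, then Cd47, Itga4, Cd36, Itgb1, Cd44, Cd9 and Itga5. Of the 8, 6 reached 1 TPM in both libraries, where 23.9% of all 21461 nuclear protein-coding genes did. At 10 TPM there were 5 of the 8, where 4.79% of those genes reached that level. Cd9 passed 1 TPM in replicate 1 alone, and Itga5 in neither library. Together the 8 genes made up 0.264% of nuclear protein-coding TPM in replicate 1 and 0.279% in replicate 2. In bulk RNA, fewer cells of a type and less RNA per cell cannot be told apart, and this holds for every level given here.

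**Figure D1:**
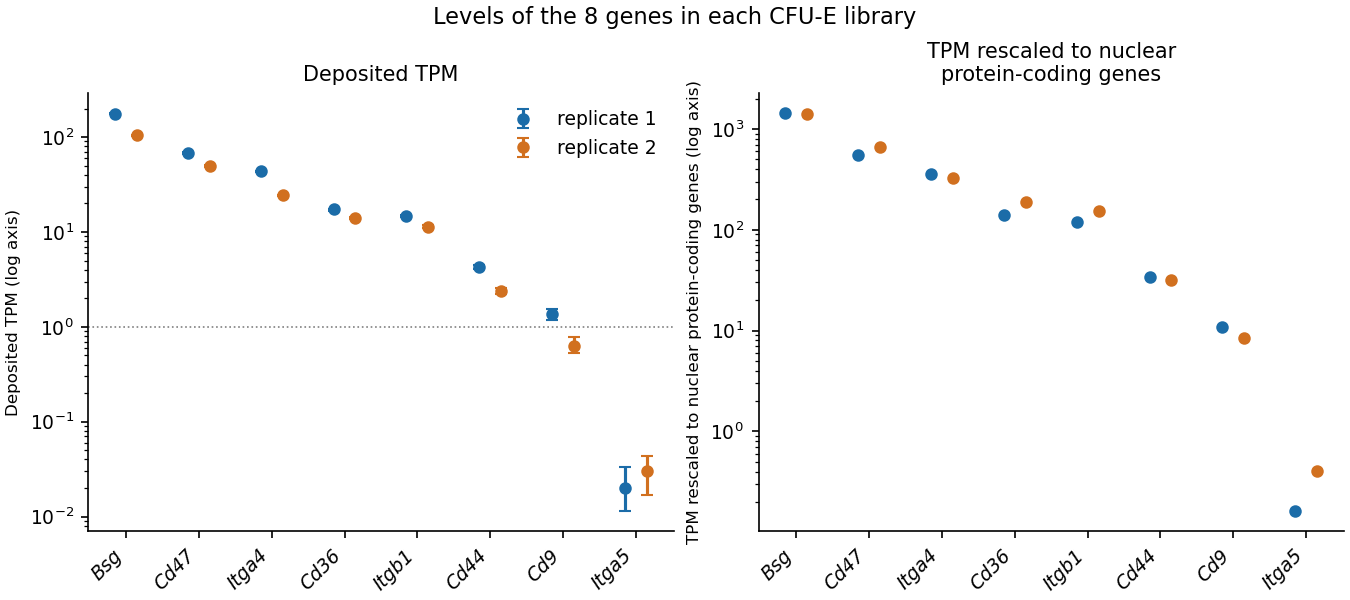
Level of each of the 8 genes in replicate 1 and replicate 2, as deposited TPM with the deposited credibility interval (left) and as TPM rescaled to nuclear protein-coding genes (right), both on log axes. On deposited TPM Bsg stood at 177 and 106 and Itga5 at 0.02 and 0.03, and the dotted line marks 1 TPM.

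Neighbours in that order were separated in both libraries, since no deposited credibility intervals of adjacent genes overlapped. The narrowest step was between Cd36 and Itgb1, whose log2 TPM ratio was 0.26 ± 0.06 (SD, n = 2). The order held only per length. By expected counts Itga4, whose main transcript is 9767 bases long, came first with 54125 counts in replicate 1 and 26476 in replicate 2. Cd47 followed with 30947 and 19214 counts, and Bsg with 30074 and 16637.

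Itga4, the alpha chain of VLA-4 (chr2:79255426-79333123, plus strand), had 44.2 TPM in replicate 1 and 24.6 TPM in replicate 2, a mean of 34.4 ± 13.8 TPM (SD, n = 2). On rescaled TPM its values were 356 and 329. Both libraries placed it high, with 347 and 417 nuclear protein-coding genes above it. Of 18 integrin alpha chains measured, Itga4 carried 76.5% of their summed TPM in replicate 1 and 80.9% in replicate 2. By expected counts its share was 92.7% in replicate 1 and 90.5% in replicate 2.

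Itgb1, the common beta chain of VLA-4 and VLA-5 (chr8:128685654-128733200, plus strand), had 14.8 TPM in replicate 1 and 11.4 TPM in replicate 2. Its mean was 13.1 ± 2.43 TPM (SD, n = 2), or 119 and 152 on rescaled TPM. It carried 67.5% and 69.3% of the summed TPM of the 9 beta chains. Itgb1 was thus the most abundant beta chain in both libraries, as Itga4 was among alpha chains, but it lay below its partner.

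Per length, Itgb1 stood at 0.336 of Itga4 in replicate 1 and 0.463 in replicate 2, a log2 ratio of -1.34 ± 0.33 (SD, n = 2). With only the transcripts annotated as protein coding, an alternative chosen after seeing the data, the log2 ratio was -0.85 ± 0.38. The sign was the same in both libraries either way. Non-coding models hold part of the Itga4 TPM, as given with its transcripts.

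Itga5, the alpha chain of the fibronectin receptor VLA-5 (chr15:103344286-103366763, minus strand), had 14 expected counts in replicate 1 and 18 in replicate 2. Its level was 0.02 TPM (deposited interval 0.0113 to 0.0332) and 0.03 TPM (0.0169 to 0.0435). Both libraries therefore held only traces of it. In the same libraries Itga4 had 3866 and 1471 times as many counts as Itga5, and Itgb1 had 621 and 338 times as many. Per length the log2 ratio of Itga4 over Itga5 was 10.40 ± 1.01 and that of Itgb1 over Itga5 was 9.05 ± 0.68 (SD, n = 2 each), with a divisor that the files give to a single significant digit. Itga5 ranked 11th and 13th among the 18 alpha chains.

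**Figure D2:**
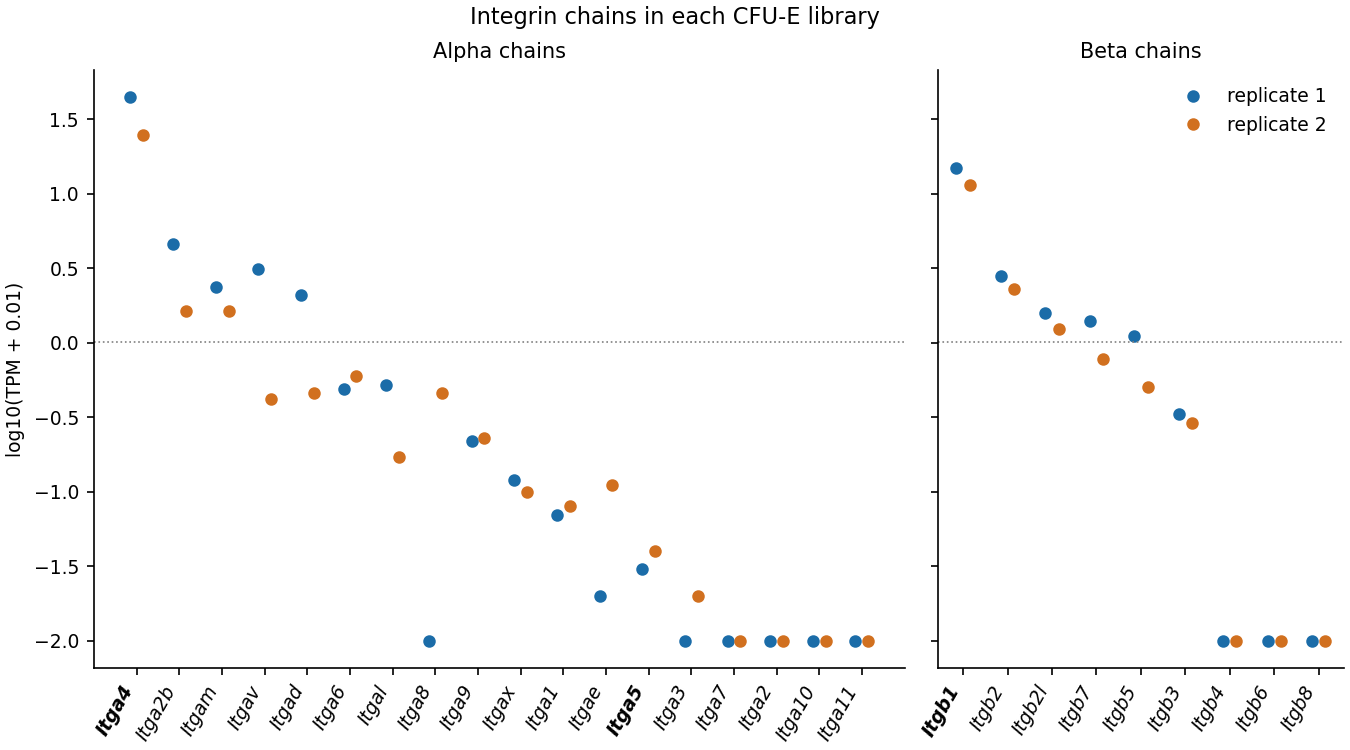
Levels of 18 integrin alpha chains (left) and 9 beta chains (right) in replicate 1 and replicate 2, as log10(TPM + 0.01), with chains at 0 TPM at the bottom, the 3 member genes in bold and a dotted line at 1 TPM. Itga4 and Itgb1 lay above every other chain of their kind in both libraries, and Itga5 lay near the bottom.

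The remaining alpha chains were low. Of 16, 2 reached 1 TPM in both libraries, namely Itga2b (the platelet alpha chain) with 4.60 and 1.62 TPM and Itgam (the myeloid alpha chain of Mac-1) with 2.35 and 1.63 TPM. Itgav, which pairs with several beta chains, had 3.13 TPM in replicate 1 and 0.41 TPM in replicate 2, and Itgad had 2.07 and 0.45 TPM. The counts of Itgav were nearly level after TMM scaling (log2 ratio -0.03), and its effective length differed, with 1312 bases in replicate 1 and 6849 bases in replicate 2. For Itga2b, whose effective lengths were 973 and 1673 bases, the log2 ratio on counts was 0.14. Itga2, Itga7, Itga10 and Itga11 had 0 counts in both libraries, which allows up to 3 counts in each. Itga4 exceeded Itga2b by a log2 ratio of 3.60 ± 0.47, Itgam by 4.07 ± 0.22 and Itgal, the lymphocyte chain of LFA-1, by 6.85 ± 0.59 (SD, n = 2 each). By counts without length correction the log2 ratio over Itga2b was 6.11 ± 0.13.

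Of the other 8 beta chains, 2 reached 1 TPM in both libraries. Itgb2, the beta chain of leukocyte integrins, had 2.78 TPM in replicate 1 and 2.29 TPM in replicate 2, and its relative Itgb2l had 1.57 and 1.22 TPM. Itgb7, the other beta chain that pairs with Itga4, had 1.38 and 0.77 TPM, and Itgb5 had 1.10 and 0.49 TPM. Itga4 stood 32.0-fold above Itgb7 in both libraries, and Itgb1 stood above Itgb7 by a log2 ratio of 3.66 ± 0.33 (SD, n = 2). Itgb1 also exceeded Itgb2 by 2.37 ± 0.07 and Itgb3, the platelet beta chain, by 5.44 ± 0.13. Itgb4, Itgb6 and Itgb8 had 0 counts in both libraries.

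Leukocyte and platelet chains belong to lineages whose markers were also measured, and most platelet markers did not reach 1 TPM in both libraries. Marker sums are over all genes of a list, also those below 1 TPM, and are on deposited TPM, whose scale differs between the libraries. On rescaled TPM the granulocyte list summed to 9636 in replicate 1 and 8056 in replicate 2. The macrophage and monocyte list summed to 1062 and 1104 on that scale. All 9 granulocyte markers reached 1 TPM in both libraries, and the list summed to 1197 TPM in replicate 1 and 603 TPM in replicate 2, led by S100a8, S100a9, Ngp and Camp. Of 10 macrophage and monocyte markers 7 did so, led by Lyz2, C1qb, Cd68 and C1qa, while Csf1r, Mertk and Siglec1 stayed below 1 TPM in both. The 10 summed to 132 and 82.7 TPM, most of it Lyz2, with 103 TPM in replicate 1 and 62.4 TPM in replicate 2. Of 8 megakaryocyte and platelet markers, which include Itga2b and Itgb3, 2 did so, Itga2b and Vwf, while Pf4, Gp1ba and Itgb3 stayed below 1 TPM in both, and the 8 summed to 14.1 and 4.58 TPM. Of 7 B cell markers 4 did so, led by Ighm and Cd79b, and the 7 summed to 39.0 and 20.2 TPM. Of 7 T and NK cell markers 2 did so, Cd3g and Nkg7, and the 7 summed to 6.02 and 2.93 TPM. Of 6 mast cell, basophil and eosinophil markers 4 did so, led by Prg2 and Mcpt8, and the 6 summed to 35.5 and 21.4 TPM. None of the 7 stem and early progenitor markers reached 1 TPM in either library, where the 7 summed to 1.88 and 0.69 TPM, and Procr had 0 counts. The part of these cells' RNA in the levels of the 8 genes was not tested.

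Genes that act on integrins inside the cell were led by talin. Of 21 activators and adaptors, 13 reached 1 TPM in both libraries. Tln1 (talin, which binds beta chain tails and activates integrins) had 99.8 TPM in replicate 1 and 50.4 TPM in replicate 2. These levels rest on short effective lengths, 1211 bases in replicate 1 and 1539 in replicate 2. The expected counts of Tln1 were 19744 and 11697, with a log2 ratio of 0.06 on TMM-scaled counts. Rap1a (a small GTPase upstream of talin) had 20.2 and 16.1 TPM, Ilk (integrin-linked kinase, an adaptor) had 11.5 and 10.4 TPM, and Fermt3 (kindlin-3, the blood cell kindlin) had 7.45 and 3.87 TPM. Fermt1 and Parva had 0 counts in both libraries.

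Of 15 integrin ligand genes, 3 reached 1 TPM in both libraries. Icam4, a red cell adhesion molecule that binds integrins, had 14.2 TPM in replicate 1 and 7.55 TPM in replicate 2. Vcam1, the counter-receptor of VLA-4, had 10.1 and 7.09 TPM, and Fn1 (fibronectin) had 4.77 and 1.06 TPM, with a log2 ratio of 0.07 on TMM-scaled counts and effective lengths of 1960 and 5618 bases. Icam2 had 2.01 and 0.75 TPM, and Madcam1, the ligand of the Itga4 and Itgb7 pair, had 0 counts in both. Itga4 exceeded Vcam1 by a log2 ratio of 1.96 ± 0.24 (SD, n = 2). Vcam1 is known for its expression on marrow macrophages, whose markers are given above, and whether its transcripts came from the CFU-E was not tested. Of 8 endothelial and stromal markers 1 reached 1 TPM in both libraries, Cxcl12 with 3.38 and 1.95 TPM, while Cdh5 and Emcn had 0 counts in both. Lepr, Col1a2 and Col1a1 were below 1 TPM in both.

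Cd44, the receptor for hyaluronan (chr2:102811141-102901665, minus strand), had 4.26 TPM in replicate 1 and 2.37 TPM in replicate 2, a mean of 3.32 ± 1.34 TPM (SD, n = 2). On rescaled TPM the values were 34.3 and 31.7, closer than on deposited TPM. It lay well below Itga4 and Itgb1, with 3104 and 3369 nuclear protein-coding genes above it. Cd44 exceeded Cd9 by a log2 ratio of 1.79 ± 0.18.

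Among 12 genes of hyaluronan binding and of the ERM proteins, which tie Cd44 to the cortex, 6 reached 1 TPM in both libraries. Hmmr, a hyaluronan-binding protein of the mitotic spindle, had 53.0 and 37.5 TPM. Ezr (ezrin) had 26.1 and 19.8 TPM, Rdx (radixin) 10.5 and 6.65 TPM, and Srgn (serglycin, a granule proteoglycan that binds Cd44) 34.9 and 11.5 TPM. The log2 ratio of Srgn was 0.92 on TMM-scaled counts, and the part of other lineages' RNA in its level was not tested. The hyaluronan synthases Has1 and Has2 and the receptor Lyve1 had 0 counts in both libraries.

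Cd47, which marks cells as self by binding Sirpa on phagocytes and which in red cells stands in the Rh complex (chr16:49800533-49915010, plus strand), was second of the 8. It had 68.6 TPM in replicate 1 and 49.9 TPM in replicate 2, a mean of 59.3 ± 13.2 TPM (SD, n = 2), and 552 and 667 on rescaled TPM. Only 200 and 172 nuclear protein-coding genes were above it. Cd47 exceeded Cd44 by a log2 ratio of 4.20 ± 0.27 and Sirpa by 3.66 ± 0.28 (SD, n = 2 each).

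All 7 genes of the Cd47 receptor and Rh complex list reached 1 TPM in both libraries. The anion exchanger Slc4a1 had 693 TPM in replicate 1 and 423 TPM in replicate 2. Rhd, the Rh protein, had 195 and 101 TPM, and Epb42 (protein 4.2, which links Cd47 to the red cell skeleton in human cells) had 114 and 63.3 TPM. Sirpa, the phagocyte receptor, was the lowest of the 7 with 6.22 and 3.45 TPM. Cd47 stood below Slc4a1, Rhd and Epb42 in both libraries.

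Cd36, which takes up fatty acids and oxidised lipids and binds thrombospondin (chr5:17781690-17888801, minus strand), had 17.3 TPM in replicate 1 and 14.1 TPM in replicate 2. Its mean was 15.7 ± 2.29 TPM (SD, n = 2), and its rescaled values were 139 and 188. Both libraries placed it among the higher protein-coding genes, with 933 and 741 above it. Cd36 exceeded its relative Scarb1 by a log2 ratio of 1.95 ± 0.56 and the macrophage gene Cd68 by 1.82 ± 0.53 (SD, n = 2 each). By counts without length correction these log2 ratios were 2.81 ± 0.04 and 3.82 ± 0.18.

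Of 11 genes of the Cd36 family and of fatty acid uptake, 6 reached 1 TPM in both libraries. Acsl1, which activates fatty acids, had 36.4 and 11.6 TPM (log2 ratio 0.07 on TMM-scaled counts). Scarb1 had 5.86 and 2.76 TPM, but its log2 ratio on TMM-scaled counts was -0.26, with effective lengths of 1381 and 2334 bases. The kinase Lyn had 3.56 and 2.60 TPM and the fatty acid carrier Fabp5 had 2.88 and 1.31 TPM. The transporter Slc27a1 and the receptor Ppara had 0 counts in both. Macrophages and platelets are also known to express Cd36, and the part of their RNA in its level was not tested.

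Cd9, a tetraspanin that organises other surface proteins into microdomains (chr6:125460266-125494791, minus strand), had 221 expected counts in replicate 1 and 100 in replicate 2. Its level was 1.35 TPM (deposited interval 1.18 to 1.54) and 0.63 TPM (0.531 to 0.785), a mean of 0.99 ± 0.51 TPM (SD, n = 2). On rescaled TPM the values were 10.9 (interval rescaled likewise, 9.53 to 12.4) in replicate 1 and 8.41 (7.09 to 10.5) in replicate 2. The intervals of the libraries overlapped on that scale, though not on deposited TPM.

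Several other tetraspanins stood far above Cd9. Of 21 genes in the list of tetraspanins and Cd9 partners, 10 reached 1 TPM in both libraries, led by Tspan33 with 97.4 and 62.3 TPM. Tspan33 is known for a role in erythropoiesis in mouse. Cd82 had 55.4 and 26.7 TPM, Tspan8 had 25.3 and 15.7 TPM, and Cd81, a close relative of Cd9, had 26.6 and 7.22 TPM. The log2 ratio of Cd81 between the libraries was 0.07 on TMM-scaled counts, and its effective lengths were 557 and 1311 bases. Cd9 lay below Cd81 by a log2 ratio of -3.91 ± 0.55 and below Cd63 by -1.58 ± 0.23 (SD, n = 2 each). Ptgfrn, a Cd9 partner, had 0 counts in both libraries.

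Bsg, an immunoglobulin-family protein that brings lactate transporters to the cell surface and binds cyclophilin A (chr10:79704491-79711969, plus strand), was the most abundant of the 8. It had 177 TPM in replicate 1 and 106 TPM in replicate 2, a mean of 141 ± 50.8 TPM (SD, n = 2). On rescaled TPM it had 1428 and 1410, a mean of 1419 ± 12.9. Only 74 and 76 nuclear protein-coding genes were above it. The 2 libraries were thus nearly level on the rescaled values.

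Several partners of Bsg were well expressed, but of the lactate transporters listed only Slc16a1 was. Of 9 partners and paralogs 6 reached 1 TPM in both libraries. The lactate transporter Slc16a1 had 57.5 TPM in replicate 1 and 39.3 TPM in replicate 2, Ppia (cyclophilin A) had 38.5 and 25.7 TPM, and the amino acid transporter subunit Slc7a5 had 22.1 and 14.9 TPM. The other lactate transporters were low, with 0.13 and 0.26 TPM for Slc16a3, 0.22 and 0.03 TPM for Slc16a7, and 0 counts in both for Slc16a8. Bsg exceeded Slc16a1 by a log2 ratio of 1.53 ± 0.14 per length, whereas by counts Slc16a1 was ahead (-0.49 ± 0.14). Of its paralogs, Nptn (neuroplastin) had 30.7 and 15.8 TPM and Emb (embigin) had 5.14 and 2.90 TPM. Bsg exceeded Nptn by 2.64 ± 0.15 and Emb by 5.15 ± 0.05 (SD, n = 2 each).

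Other adhesion genes at the cell surface were mostly low. Of 20, 5 reached 1 TPM in both libraries, led by Cd24a, a heat-stable antigen of erythroid cells, with 944 TPM in replicate 1 and 472 TPM in replicate 2. Cxcr4, a chemokine receptor that retains cells in the marrow, had 31.5 and 30.2 TPM, with a log2 ratio of -0.51 on TMM-scaled counts. Cd99l2 had 2.04 and 1.70 TPM. Esam, Bcam, F11r, Jam2, Epcam, Cdh5 and Emcn had 0 counts in both.

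Between the libraries, none of the 7 genes above the minimum mean count of 50 differed by 2-fold or more on TMM-scaled counts. Of all 10403 genes with that count, 10.7% were 2-fold or more higher in replicate 1 and 10.3% were 2-fold or more lower. The 7 log2 ratios of replicate 1 over replicate 2 ran from -0.30 for Cd36 to 0.44 for Cd9, with a median of 0.16, beside a median of 0.03 for all those genes. With 1 library on each side there is no test of these ratios. They were 0.33 for Itga4, 0.31 for Cd44, 0.16 for Bsg, -0.01 for Cd47 and -0.18 for Itgb1. Itga5, with a mean count of 16, was not counted, and its ratio was -1.05.

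The ratio of Itga4 was wider than the typical ratio of genes of its depth. Among the 140 genes within 2-fold of its mean count, the median absolute log2 ratio was 0.16. For Cd36, with -0.30, the corresponding median was 0.16 over 985 genes. The ratios of Bsg (median 0.15 at its depth) and Itgb1 (0.16) were close to that of their depth, that of Cd44 slightly wider (0.26), and those of Cd47 (0.14) and Cd9 (0.74) narrower.

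**Figure D3:**
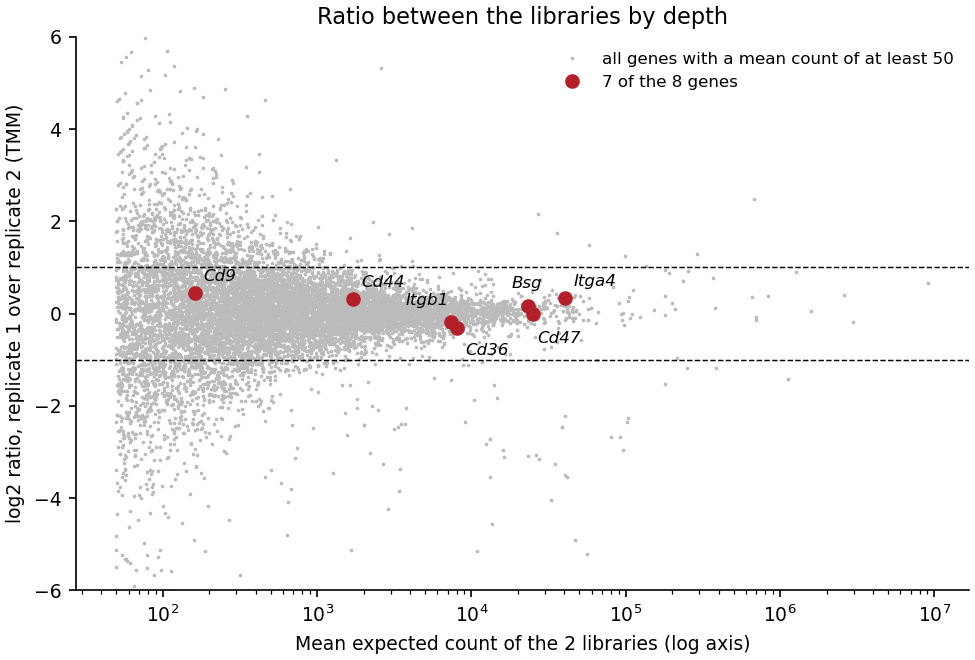
Log2 ratio of replicate 1 over replicate 2 on TMM-scaled counts against the mean expected count of the 2 libraries (log axis), with all genes of a mean count of at least 50 in grey and 7 of the 8 genes in red. The 7 genes lay between -0.30 and 0.44, inside the dashed lines at 2-fold, and 145 genes fell beyond the plotted range of 6 on either side.

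The transcript tables split each gene among annotated models, and shares are of the gene's TPM. Of the 7 members with 2 or more models, 1, Cd44, had a different major model in the 2 libraries. Among 5586 genes with 2 or more models and at least 100 counts in both libraries, 40.1% did. The largest difference of any model's share between the libraries had a median of 5.66 percentage points over the 7 members, beside 24.8 over those genes. The 5586 genes were not matched to the members for read depth, and Cd9 had counts in only 1 model, so its shares could not differ. Itga5 has a single model, Itga5-201.

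Itga4 was led by Itga4-201, its protein-coding model, with 72.4% in replicate 1 and 67.1% in replicate 2. The other 3 named models are annotated as processed transcripts without a coding frame. Itga4-205 held 11.7% and 10.1%, Itga4-202 held 9.34% and 12.1%, and Itga4-204 held 6.53% and 9.49%. Together the non-coding models took 27.6% of the gene's TPM in replicate 1 and 32.9% in replicate 2, but only 7.77% and 9.73% of its expected counts, since Itga4-201 is much longer than they are. Over the 5586 genes the median share in models not annotated protein coding was 12.4% and 17.1%. Only 31.7% of Itga4-201 is coding, and its last exon alone has 6604 bases. Cerkl overlaps Itga4 on the opposite strand and had 80 and 277 counts.

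Itgb1 was nearly all Itgb1-201, with 99.2% in replicate 1 and 96.9% in replicate 2, and Cd9 was all Cd9-201 in both.

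Cd44 was split between a standard and a variant form. Cd44-203, which skips the variant exons by the upper junction printed for Cd44, held 28.0% in replicate 1 and 53.9% in replicate 2. Cd44-207, which carries 5 variant exons of 636 bases in all, held 41.8% and 29.5%. Cd44-209, annotated as a retained intron, held 30.3% and 16.5%. In TPM, Cd44-203 had 1.19 (deposited interval 0.943 to 1.37) and 1.28 (1.09 to 1.42), whereas Cd44-207 had 1.78 (1.62 to 1.89) and 0.70 (0.590 to 0.775).

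On TPM rescaled to nuclear protein-coding genes, with the deposited intervals rescaled likewise (an alternative chosen after seeing the data), Cd44-203 was lower in replicate 1, with 9.58 (7.59 to 11.04) against 17.1 (14.6 to 18.9) in replicate 2. Cd44-207 was higher in replicate 1, with 14.3 (13.0 to 15.2) against 9.35 (7.88 to 10.3) in replicate 2, and so was Cd44-209, and none of these pairs of intervals overlapped. The shift of the major model combines a 26.0-point higher share of Cd44-203 in replicate 2 with a 12.2-point lower share of Cd44-207. These models differ outside the variant exons as well. Of the 2197 bases of Cd44-207 that Cd44-203 lacks, 636 are in variant exons, 1406 at the 3′ end and 155 at the 5′ end, so a read assigned to Cd44-207 need not come from a variant exon. The other 6 Cd44 models, among them Cd44-201 with 10 variant exons, had 0 counts in both libraries.

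**Figure D4:**
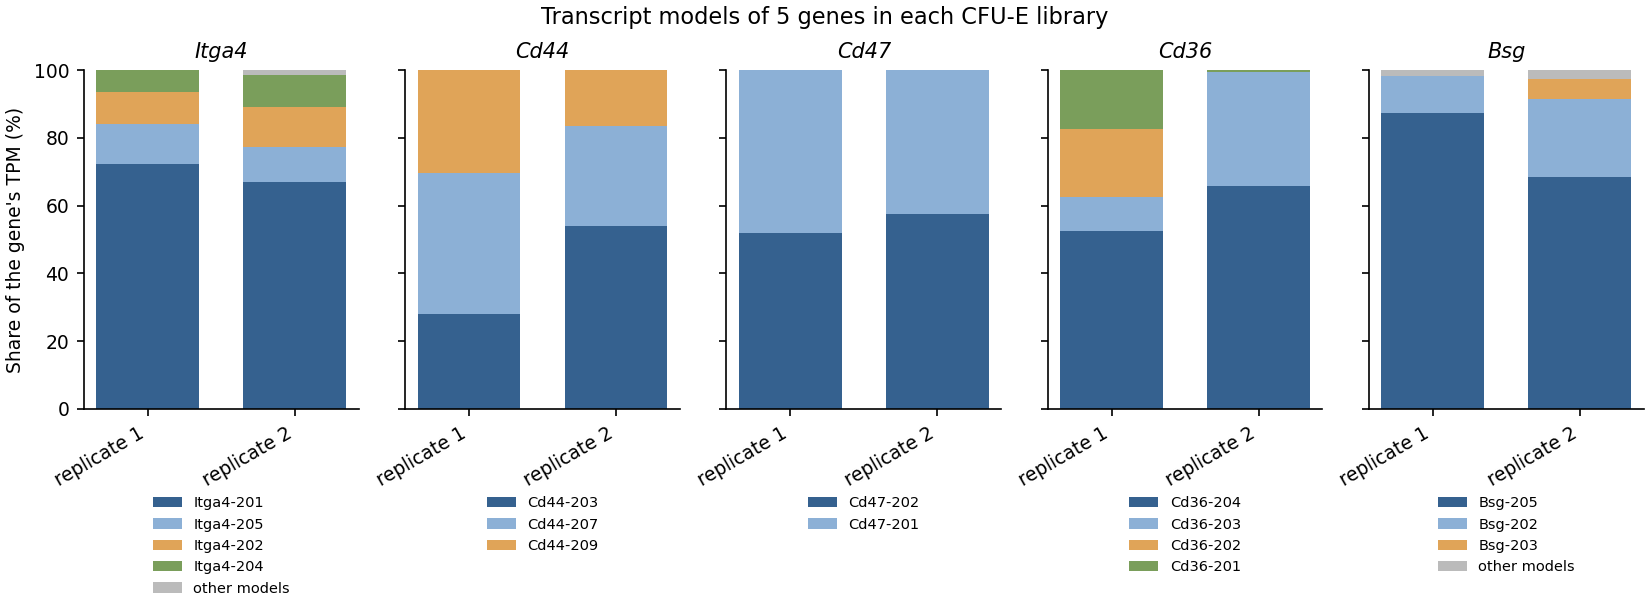
Share of each gene's TPM held by its transcript models in replicate 1 and replicate 2, for the 5 genes with more than 1 model at 5% or more, with smaller models together in grey. Itga4-201 and Bsg-205 led their genes in both libraries, whereas Cd44-203 held 28.0% in replicate 1 and 53.9% in replicate 2.

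Cd47 was divided almost evenly per length. Cd47-202, with 813 coding bases, held 52.0% in replicate 1 and 57.7% in replicate 2, and Cd47-201, with 972 coding bases, held 48.0% and 42.3%. By expected counts the longer Cd47-201 led instead, with 87.9% and 84.5%. The deposited table gives Cd47-202 a length of 867 bases, against 1175 in GENCODE M21, so its per-length level rests on the shorter model.

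Cd36 was led by Cd36-204, with 52.5% in replicate 1 and 65.7% in replicate 2. Cd36-203 held 10.01% and 33.9%, Cd36-202 held 20.3% and 0%, and Cd36-201 held 17.2% and 0.39%. All 4 models have a coding length of 1416 bases. The deposited interval of Cd36-202 in replicate 1 ran from 0.166 to 5.32 TPM around 3.51 TPM, a wide span. Of the 4 models, all but Cd36-204 differ in length between the deposited table and GENCODE M21.

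Bsg was led by Bsg-205, with 87.3% in replicate 1 and 68.4% in replicate 2. Bsg-202, which starts downstream of the first coding exon printed for Bsg, held 10.96% and 22.99%. Its deposited level was 19.4 TPM (deposited interval 16.3 to 22.6) and 24.3 TPM (20.9 to 26.5). On rescaled TPM, with intervals rescaled likewise after seeing the data, Bsg-202 had 156 (131 to 182) and 324 (280 to 354). Bsg-205 went the other way, with 1247 (1208 to 1266) and 964 (916 to 997), and neither pair of intervals overlapped. Bsg-203 held 0% and 5.95%. Bsg-201, the long form with 348 extra coding bases, which is known from the retina, held 1.31% and 0.31%. In expected counts Bsg-201 had 494 in replicate 1 and 65.8 in replicate 2, against 26277 and 11750 for Bsg-205. The short form was thus the main one in both libraries.

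Reads that match several genes are divided among them, so close relatives were compared for shared stretches. Itga4-201 shared at most 12 bases in a row with Itga5 within coding sequence and 15 with Itga9. Bsg shared at most 15 with Nptn and 10 with Emb, and Cd9 shared at most 22 with Cd81. The processed pseudogene Cd9-ps had 0 counts in both libraries.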

How the data were processed

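The authors deposited gene and transcript tables on mm10 for each library, with notes that name GENCODE M4. Quantifier and aligner: not given in the sources used here (RSEM uses such column names). The deposited columns, per the file headers, are expected counts (estimates that divide a read among the genes it matches), TPM, posterior mean TPM and the bounds of a TPM credibility interval, whose level is not stated. The deposited percent is each transcript's share of its gene's TPM. TPM divides by effective length, so short models gain weight.

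Names, biotypes and coordinates came from GENCODE M21 by identifier without version, and 42462 of 43346 genes matched. Expected counts were rounded for edgeR 4.0.16 (TMM, effective sizes 61216283 and 37709101, prior count 0.5) and DESeq2 1.42.0 (alternative size factors), in R 4.3.3. Python 3.11.15, pandas 2.3.3 and matplotlib 3.10.9 did the rest. CPM were computed from counts. Ratios were checked on simulated data. Mean and SD are over n = 2, and no test was made, since there is 1 group. Intervals and floors describe a single library and do not cover variation between libraries.

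The 8 genes, 10 context lists, 9 marker lists and 22 gene pairs were chosen with earlier results of these data known. The text names the 8 genes, their transcripts at 5% or more, the 4 highest genes of each list and the genes of the pairs, apart from a few list genes not reported here. Genes at 0 counts, Bsg-201, other below-threshold genes and the remaining lower members of the lists were named after their values were seen. Alternatives changed the TPM minimum, the scaling, the prior count, the count filter, the measure and the library left out. Amino acid sequences were not used here.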

Additional observations from a re-analysis of the deposited data

How the results depend on the processing

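With 2 libraries in 1 group, every value rests on n = 2 and no call carries a p-value. No paired analysis was possible because there is 1 group. The count of the 8 genes at 1 TPM in both libraries was 6, and it ran from 5 to 7 under the other minimums and scales and from 6 to 7 when each library was left out in turn. The count past 2-fold between the libraries was 0 under TMM, DESeq2 size factors, scaling to protein-coding totals and a prior count of 5. It was 1 (Cd9) on the ratio of deposited TPM and 1 (Itga5) with no filter on low counts. Of the context list genes 60 reached 1 TPM in both libraries, 68 at a minimum of 0.5 TPM, 89 on rescaled TPM and 27 at a minimum of 5 TPM. Replicate 1 alone gave 73 and replicate 2 alone gave 60. By expected counts without length correction, the log2 ratio of Bsg over Cd47 turned to -0.12 and that of Bsg over Slc16a1 to -0.49. The other 20 pairs kept their sign, but 17 of them moved by more than the SD between libraries. Counts rise with transcript length, which TPM divides out. Of 19 transcript shares, 8 moved by more than the SD between libraries when taken from expected counts, and all 8 levels stayed within it on posterior mean TPM. Cd44 alone changed its major model between libraries under TPM, count and posterior mean shares, the last 2 chosen after seeing the data. By counts the change rests on a near tie in replicate 2, with 514.2 counts for Cd44-203 and 513.8 for Cd44-207. Depth limits Itga5 (14 and 18 counts) and Cd9 (221 and 100 counts).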
